A study of Mus musculus with 18 samples.

Results

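Fibrillar and type VI collagen genes, 6 in number, were followed across mice with and without caveolin-1: Col1a1, Col1a2, Col3a1 and Col5a1, which encode chains of fibrillar collagens, and Col6a1 and Col6a3, which encode chains of type VI collagen. They were taken by gene symbol, and their probes on the Illumina Mouse-6 V1 array were found by reading the number inside the probe name as a mouse NCBI gene ID. Each of the 6 genes had 1 probe, and 8687 genes had a named probe in all. The gene IDs are 12842 for Col1a1 on chromosome 11, 12843 for Col1a2 on chromosome 6, 12825 for Col3a1 on chromosome 1, 12831 for Col5a1 on chromosome 2, 12833 for Col6a1 on chromosome 10 and 12835 for Col6a3 on chromosome 1. The names are an inference. The IDs of 29 collagen genes lie in 1 run, so a number misread by 1 would name another collagen for 5 of these genes on either side, and for Col1a2 on the lower side.

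RNA came from 3 wild-type (WT) and 3 Cav1 knockout (KO) samples each of embryonic fibroblasts (MEFs), liver and adipose tissue. The fibroblasts are labelled as a primary line of each genotype, harvested 24 hours after they were plated. Mice went without food for 24 hours before liver was sampled and for 11 hours before adipose tissue was, so the 2 tissues also differ in the length of the fast. Every KO sample carries the loss of Cav1, which encodes the main coat protein of caveolae, and no other treatment is labelled. The strain, age and sex of the mice, the knockout allele, the adipose depot, and whether replicate arrays stand for separate animals or cultures are not given in the labels. The p-values therefore reflect only how far replicate arrays scatter, part of which may be technical. If each genotype's fibroblasts are 1 line, line and genotype cannot be told apart.

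Type I collagen, the main fibrillar collagen of skin, bone and tendon, is usually a heterotrimer in which the product of Col1a1 supplies 2 of the 3 chains and the product of Col1a2 the other. Type III collagen, from Col3a1, forms fibrils together with type I in soft tissue, and type V collagen, which contains the Col5a1 chain, takes part in starting fibrils. Type VI collagen, from Col6a1, Col6a3 and partner genes, forms beaded microfilaments around cells and is a known part of the matrix around adipocytes. Fibroblasts are the chief source of fibrillar collagens, and in adipose tissue stromal cells and adipocytes both contribute to the matrix.

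The stretch just before the annotated start is shown for 3 of the genes, because Col1a2 is the gene that differed in fibroblasts while its fibril partners Col3a1 and Col5a1 did not pass the test there. The sequences are RefSeq's on GRCm38.p6, 250 bases ending at the base before the start, written 5′ to 3′ along the gene. They lie at chr6:4505368-4505617 on the plus strand for Col1a2, chr1:45311288-45311537 on the plus strand for Col3a1 and chr2:27886175-27886424 on the plus strand for Col5a1. Capitals mark a match, on either strand, to the letters CCAAT of the CCAAT box, to the letters TATAAA of the TATA box, or to the letters GGGCGG of the GC box, and no match overlaps another here.
Col1a2: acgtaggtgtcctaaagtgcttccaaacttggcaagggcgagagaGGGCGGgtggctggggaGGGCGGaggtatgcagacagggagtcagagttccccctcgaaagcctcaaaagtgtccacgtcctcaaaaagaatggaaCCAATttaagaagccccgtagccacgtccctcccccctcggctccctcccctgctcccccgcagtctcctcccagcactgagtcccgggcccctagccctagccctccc
Col3a1: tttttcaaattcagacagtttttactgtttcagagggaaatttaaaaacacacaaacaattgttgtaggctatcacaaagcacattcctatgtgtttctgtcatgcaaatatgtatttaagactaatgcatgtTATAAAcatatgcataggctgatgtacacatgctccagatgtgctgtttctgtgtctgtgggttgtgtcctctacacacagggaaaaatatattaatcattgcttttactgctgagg
Col5a1: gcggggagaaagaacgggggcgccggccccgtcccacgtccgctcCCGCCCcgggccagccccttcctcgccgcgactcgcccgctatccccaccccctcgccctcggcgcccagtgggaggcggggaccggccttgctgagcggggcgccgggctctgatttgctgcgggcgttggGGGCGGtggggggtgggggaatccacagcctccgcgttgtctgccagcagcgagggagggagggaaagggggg
The Col1a2 stretch held GGGCGG starting 205 and 188 bases before the start and CCAAT starting 109 bases before it. The Col3a1 stretch held TATAAA 117 bases before the start. The Col5a1 stretch held GGGCGG 73 bases before the start and, on the opposite strand, CCGCCC 205 bases before it. Among 32851 promoters in the table, 33.8% held CCAAT, 12.4% TATAAA and 32.7% GGGCGG in the same window on either strand, so each of these letters is common. The corresponding windows of Col6a1 (chr10:76726045-76726294, minus strand) and Col6a3 (chr1:90843972-90844221, minus strand) held none of the 3. No promoter entry was available for Col1a1, so its stretch was not read. The share of G and C was 62.0% for Col1a2, 35.2% for Col3a1, 76.4% for Col5a1, 56.0% for Col6a1 and 57.2% for Col6a3. These matches describe letters only.

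Raw values below are the average signal of a probe's beads on an array. Differences are KO minus WT on the log2 scale after background correction and normalisation within a tissue, with the standard error (SE), and a gene is said to differ where its limma p, adjusted by Benjamini-Hochberg over all probes tested, was under 0.05. The arrays detected 26.3% to 37.0% of probes. The fibroblast slide carried the WT arrays in its first 3 positions and the KO arrays in its last 3, so position and genotype cannot be told apart, and each tissue had slides of its own. In liver WT 2, WT 3 and all KO arrays shared 1 slide, with the WT arrays at positions B and C and the KO arrays at D to F. Liver WT 1 was on another slide. Position and genotype thus cannot be told apart on the shared liver slide either. On the adipose slide WT 2, KO 2 and KO 3 were at positions A to C, and WT 4, KO 5 and WT 1 at D to F. The Cav1 probe differed by -3.45 ± 0.26 in fibroblasts (limma adjusted p = 0.0162, and 0.0922 with the replicate number as a block) and by -4.39 ± 0.31 in adipose tissue (adjusted p = 0.0157, and 0.0632 with the first 3 against the last 3 positions of the slide as a block). Its adjusted p was also over 0.05 without fibroblast WT 2, WT 3 or KO 2 (0.0778 to 0.0971) and without adipose WT 1, WT 2, WT 4 or KO 3 (0.0615 to 0.0842), with differences of -3.47 to -3.45 and -4.57 to -4.31. In liver, where Cav1 was dim, the difference was -0.23 ± 0.05 (adjusted p = 0.0609), and its size depended on the background. It was -1.37 (adjusted p = 0.0181) with the background from the median and median absolute deviation and -2.38 (adjusted p = 0.0281) in the authors' normalised values. Over 16 alternatives it ran from -2.38 to -0.20, with an adjusted p of 0.0111 to 0.189, and 6 were under the threshold. Where this probe lies relative to the deleted part is not known here. In raw signal, Cav1 ranged from 788.7 to 1690 over the KO fibroblast arrays and from 9766 to 10821 over the WT ones.

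In embryonic fibroblasts the loss of Cav1 went with a large drop in Col1a2 and no change past the test in the other 5 collagen genes. The raw Col1a2 signal was 3650, 2724 and 2571 on WT 1, 2 and 3. It was 548.0, 409.8 and 636.3 on KO 1, 2 and 3. Every KO array lay far below every WT array, and groups that did not overlap with KO lower were found for 8.32% of all probes. The bead SD deposited for each array, which may be per bead or of the mean, was 3.76% to 4.94% of the Col1a2 signal in fibroblasts. Col1a2 fell by 3.06 ± 0.24 on the log2 scale, an 8.35-fold lower level, from 11.32 ± 0.33 (SD, n = 3) to 8.25 ± 0.35 (SD, n = 3), with a limma adjusted p of 0.0176. It ranked 22nd by p among 14050 probes tested. Thus 1 of the 6 genes passed the test, against 0.448% of all probes (0.313% lower and 0.135% higher in KO).

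The direction of the Col1a2 difference held under all 15 alternatives run in fibroblasts, and its size ran from -3.23 to -2.37. The fall was smaller without background correction (-2.37) and with the background from the median and median absolute deviation (-2.63). It was also smaller in the authors' normalised values (-2.72). The call for Col1a2 did not always hold. With the replicate number as a block its limma adjusted p was 0.0908. Without WT 2 it was 0.102, without WT 3 0.0557, without KO 1 0.0618 and without KO 3 0.0550. The 15 adjusted p-values ran from 3.49e-06 to 0.102, and 10 were under the threshold.

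Col1a1, whose product shares the type I trimer with that of Col1a2, had nearly the same raw signal in both genotypes, 4788, 4791 and 4694 on WT 1, 2 and 3 and 5036, 4039 and 5153 on KO 1, 2 and 3. Its KO range enclosed the WT values. The difference was 0.07 ± 0.15 (limma adjusted p = 0.928). Col3a1 gave 2990, 1477 and 1806 on WT 1, 2 and 3 and 1470, 1227 and 2111 on KO 1, 2 and 3, which overlap, and differed by -0.30 ± 0.34 (adjusted p = 0.840). Col5a1 was bright on every array, at 8088 to 9479 in WT and 8325 to 10773 in KO, and differed by 0.24 ± 0.13 (adjusted p = 0.601).

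The type VI genes did not pass the test in fibroblasts either. Col6a1 gave 3141 to 5182 in WT and 3336 to 4468 in KO, with a difference of 0.16 ± 0.28 (limma adjusted p = 0.910). Col6a3 had the widest WT spread of the 6 on the log2 scale. It read 5714, 2578 and 3236 on WT 1, 2 and 3 and 4636, 4049 and 6035 on KO 1, 2 and 3, a difference of 0.56 ± 0.32 (adjusted p = 0.631). WT 1 was the brightest WT array for Col1a2, Col3a1, Col6a1 and Col6a3. The median of the 6 differences was 0.12, against -0.000636 over all probes tested, and 4 of the 6 were positive, against 49.6% of probes.

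**Figure D1:**
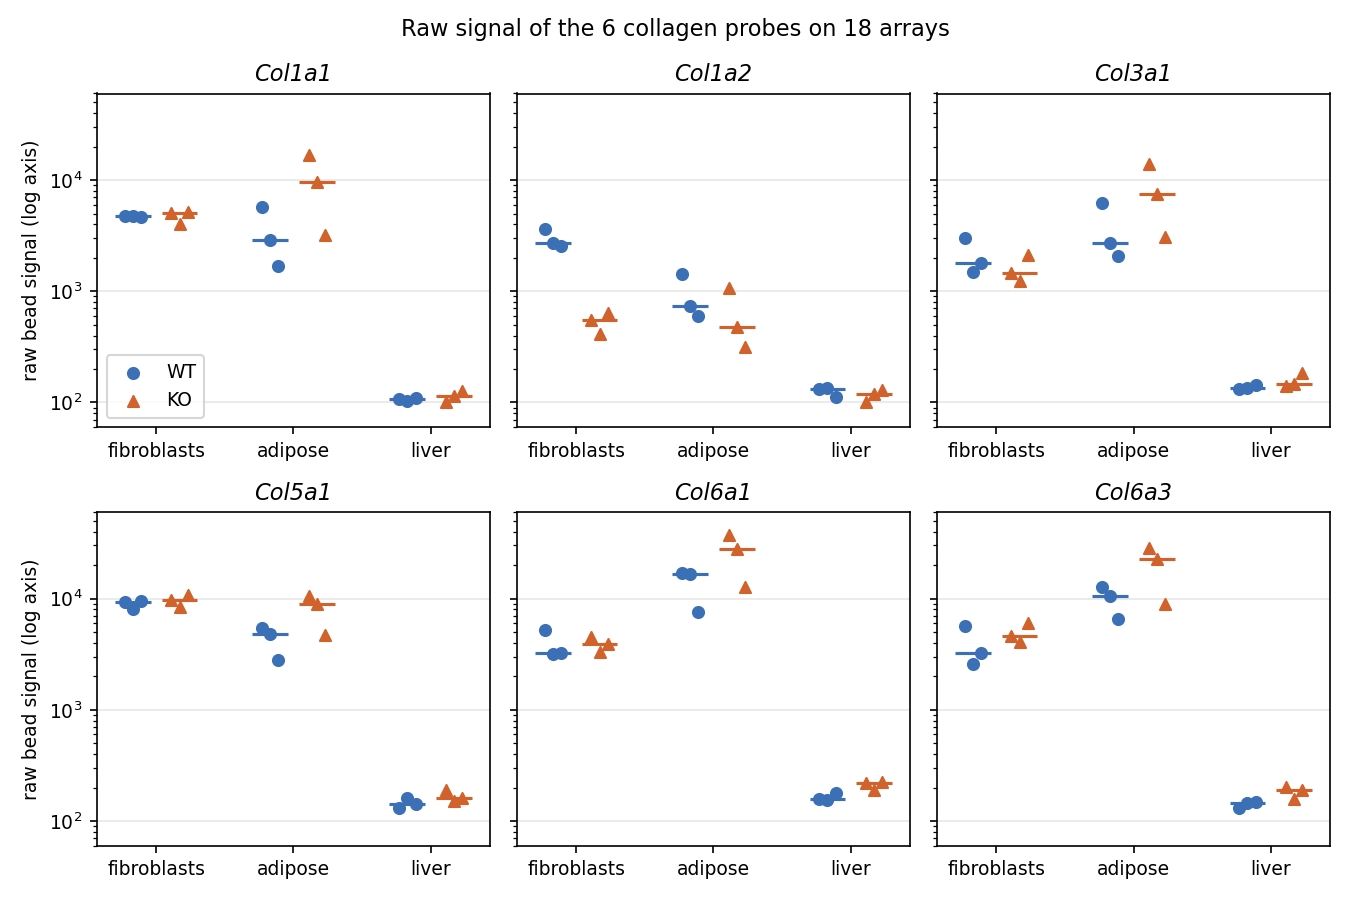
Raw bead signal (log axis) of each collagen probe on the 18 arrays, by tissue and genotype; points are arrays and bars the median of 3. Col1a2 in fibroblasts sits at 2571 to 3650 in WT and at 409.8 to 636.3 in KO, and the liver values of all 6 probes lie at 100.9 to 221.9.

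In adipose tissue no collagen gene passed the test. Col1a1, Col3a1, Col5a1, Col6a1 and Col6a3 had higher means in KO, by 0.93 to 1.55 on the log2 scale, and Col1a2 alone had a lower one. Of all 15968 probes 0.407% passed, and none of the 6 genes did so under any of 15 alternatives. At an unadjusted limma p under 0.05 there were 2 of the 6, Col5a1 and Col6a3, against 13.2% of probes. The signs were the same under all 15 alternatives for each of the 6 genes. A positive difference was seen for 5 of the 6 genes and for 47.9% of all probes tested. The median difference of the 6 was 0.94, against -0.00347 for all probes. Since whole tissue was measured, a change in the number of cells of a type and a change in RNA per cell cannot be told apart.

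The raw Col1a1 signal was 1674, 5719 and 2919 on WT 1, 2 and 4 and 16947, 9603 and 3236 on KO 2, 3 and 5. KO 2 and KO 3 stood above every WT array, while KO 5 lay between WT 4 and WT 2. At positions D to F of the slide, KO 5 had more raw Col1a1 and Col3a1 signal than WT 1 and WT 4. It had less than WT 4 for Col5a1, Col6a1 and Col6a3. The Col1a1 difference was 1.55 ± 0.65 (limma adjusted p = 0.405).

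Col3a1 followed the same order of arrays, with 2083, 6234 and 2744 on WT 1, 2 and 4 and 13966, 7487 and 3092 on KO 2, 3 and 5. Its difference was 1.14 ± 0.59 (limma adjusted p = 0.487). Again KO 5 fell among the WT arrays.

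Col5a1 was the only one of the 6 whose normalised groups did not overlap in adipose tissue. Its log2 values were 11.49, 11.95 and 12.08 on WT 1, 2 and 4 and 13.15, 12.87 and 12.33 on KO 2, 3 and 5. KO 5 was closest to the WT arrays. The difference was 0.94 ± 0.26 (limma adjusted p = 0.246), and groups that did not overlap with KO higher were found for 8.81% of all probes.

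The type VI probes behaved like those of Col1a1 and Col3a1. Raw Col6a1 was 7499, 16943 and 16774 on WT 1, 2 and 4 and 37158, 28091 and 12778 on KO 2, 3 and 5, a difference of 0.94 ± 0.40 (limma adjusted p = 0.409). Raw Col6a3 was 6582, 12715 and 10458 on WT 1, 2 and 4 and 28741, 22893 and 8954 on KO 2, 3 and 5, a difference of 0.93 ± 0.36 (adjusted p = 0.377). For both genes KO 2 and KO 3 exceeded every WT array and KO 5 did not. The sizes depended on single arrays in both directions. Without KO 5 the differences were 2.11 for Col1a1, 1.62 for Col3a1, 1.16 for Col5a1, 1.25 for Col6a1 and 1.301 for Col6a3 (limma adjusted p = 0.0853 for Col6a3, the smallest of the 5). Without KO 2 they were 1.06, 0.66, 0.76, 0.66 and 0.67, and without WT 1 they were 1.19, 0.92, 0.75, 0.67 and 0.78. With the first 3 against the last 3 positions of the slide as a block the 5 were 0.71 to 1.07.

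Col1a2 did not move with the others. Its raw signal was 602.7, 1421 and 743.6 on WT 1, 2 and 4 and 1062, 481.2 and 317.4 on KO 2, 3 and 5. KO 3 and KO 5 lay below every WT array and KO 2 did not. The difference was -0.52 ± 0.31 (limma adjusted p = 0.551). This probe was dim enough in adipose tissue for the background to matter, and the difference was -1.11 (adjusted p = 0.385) with the background set from the median and median absolute deviation and -1.23 (adjusted p = 0.433) in the authors' normalised values. Across all 15 alternatives its adjusted p ran from 0.323 to 0.799.

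**Figure D2:**
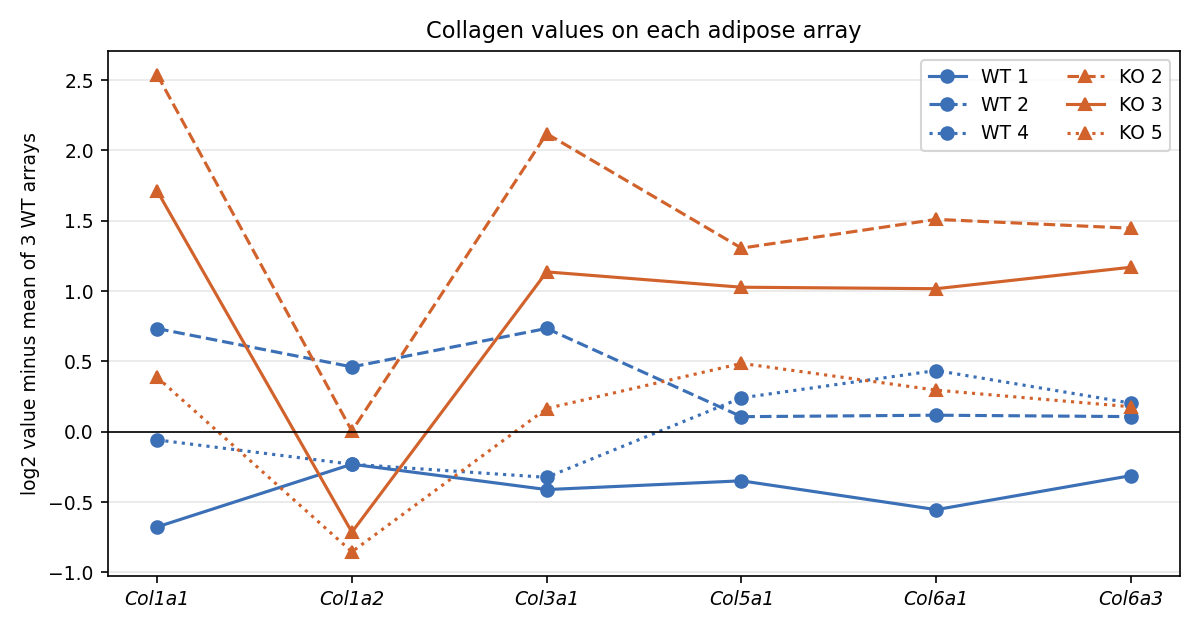
Log2 value of each collagen probe on the 6 adipose arrays, minus the mean of the 3 WT arrays; each line is 1 array. KO 2 and KO 3 lie above every WT array for the 5 genes other than Col1a2, and KO 5 does so for Col5a1 only.

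Across the 6 adipose arrays the 5 genes other than Col1a2 rose and fell together. Pearson's r between pairs of them was 0.854 to 0.980, and r between Col1a2 and any of them was -0.23 to 0.20. In fibroblasts r among the same 5 genes was 0.20 to 0.77. These are descriptions over 6 arrays that share a slide and a genotype difference, with no test.

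**Figure D3:**
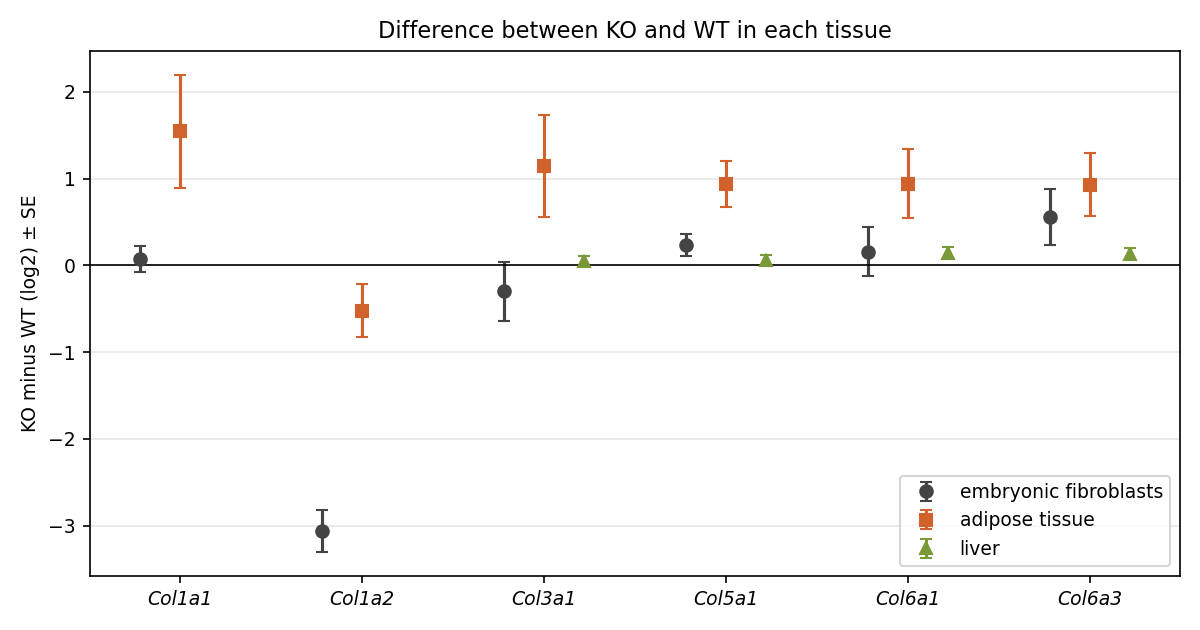
KO minus WT difference on the log2 scale for each gene in fibroblasts, adipose tissue and liver; bars are the SE from limma with 3 arrays a group. Col1a1 and Col1a2 were not tested in liver; Col1a2 in fibroblasts is at -3.06 and the adipose values run from -0.52 to 1.55.

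The collagen probes were close to background in liver. Col1a1 was detected on none of the 6 liver arrays and Col1a2 on 2 WT arrays and no KO array, so neither was tested. Raw Col1a2 was 112.6, 131.7 and 136.1 on WT 1, 2 and 3 and 100.9, 119.6 and 130.7 on KO 1, 2 and 3, where the lowest detected signal of an array was 125.0 to 142.0. The groups overlap at this level, and a difference was not detectable.

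Of the 4 collagen genes tested in liver, none passed the limma test, where 4.75% of 12574 probes did, and 0 had an unadjusted p under 0.05, against 22.2% of probes. Col6a1 was the brightest, at 177.2, 156.1 and 154.0 on WT 1, 2 and 3 and 218.2, 189.3 and 221.9 on KO 1, 2 and 3. Its raw values did not overlap, but on the normalised scale the groups did, and the difference was 0.15 ± 0.06 (limma adjusted p = 0.242). Col6a3 differed by 0.14 ± 0.06 (adjusted p = 0.299), Col3a1 by 0.05 ± 0.06 and Col5a1 by 0.06 ± 0.06. The main background correction compresses such dim probes, and in the authors' normalised values the 4 differences were 0.51 to 1.16, again with none past the test.

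The gap between Col1a2 and a partner on the same array removes brightness shared by the whole array, if both probes respond to it alike. The main background compresses dim probes, so this holds only in part for Col1a2 in adipose tissue. The level of the gap has no meaning, since the 2 probes differ, and only its shift between genotypes is read here. In fibroblasts Col1a2 minus Col1a1 was -0.41, -0.89 and -0.98 on WT 1, 2 and 3. It was -3.92, -4.03 and -3.74 on KO 1, 2 and 3. The shift was -3.14, with no overlap.

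In adipose tissue Col1a2 minus Col1a1 was -1.83, -2.55 and -2.45 on WT 1, 2 and 4 and -4.81, -4.70 and -3.52 on KO 2, 3 and 5. The shift was -2.07, and the genotypes did not overlap here although those of Col1a2 by itself did. How often 2 probes taken at large give a gap without overlap was not counted, in either tissue. The lack of overlap is therefore a description only. Against Col3a1 the shift was -2.76 in fibroblasts and -1.66 in adipose tissue, also without overlap. Each of the 4 comparisons had a two-sided exact permutation p of 0.1, the smallest that 3 arrays against 3 allow, and so none can pass a threshold of 0.05. Under 9 alternatives each, chosen after seeing the data, the shift to Col1a1 stayed between -3.25 and -2.44 in fibroblasts and between -2.66 and -1.83 in adipose tissue. In fibroblasts the shift to Col1a1 came almost wholly from Col1a2. In adipose tissue the larger part came from the higher Col1a1 value, and neither gene passed the test there.

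**Figure D4:**
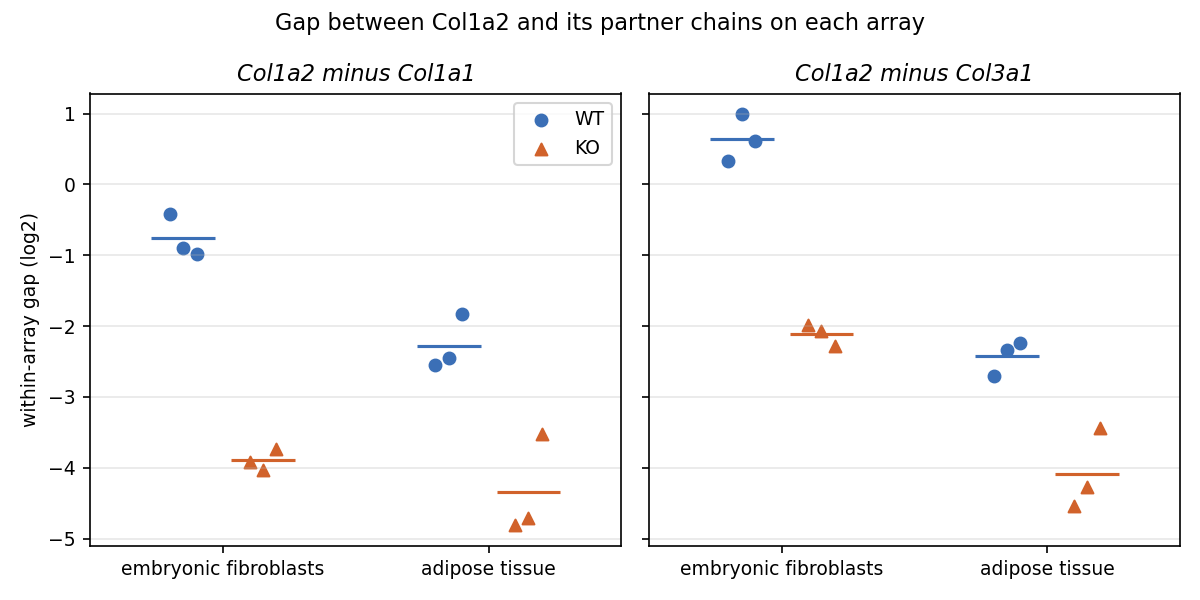
Within-array gap on the log2 scale between Col1a2 and Col1a1 (left) and between Col1a2 and Col3a1 (right); points are arrays and bars the mean of 3. In both tissues every KO array lies below every WT array, with mean shifts to Col1a1 of -3.14 in fibroblasts and -2.07 in adipose tissue. The share of other probe pairs that do so was not counted.

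Whether the effect of the knockout differed between tissues was tested in 1 fit over all 18 arrays, in which tissue and slide cannot be told apart. The Col1a2 effect in fibroblasts minus that in adipose tissue was -2.69 ± 0.34 (limma adjusted p = 0.000765), where 2.45% of 19950 probes passed. With the background from the median and median absolute deviation it was -1.69 and did not pass (adjusted p = 0.205, in a range of 0.000360 to 0.205 over 20 alternatives). With the main background Col1a2 read 8.11 in WT adipose tissue and 7.19 in KO liver, where it was undetected. On that scale the probe had little room to fall in adipose tissue. A fall as large as that in fibroblasts could not have shown there. With the other background, Col1a2 in WT adipose tissue lay 2.71 above WT liver, and its difference within fibroblasts was -2.63. What this limit adds to the contrast was not tested. Of the 6 genes, 4 had an unadjusted p under 0.05 in this contrast (Col1a1, Col1a2, Col3a1 and Col5a1), against 13.4% of probes, and Col1a2 alone passed after adjustment. Without adipose KO 5, Col1a1 (-2.17, adjusted p = 0.0150) and Col5a1 (-0.99, adjusted p = 0.0243) passed too. Each passed under that 1 of 20 alternatives only. With all arrays Col1a1 was at -1.55 (limma adjusted p = 0.276) and Col5a1 at -0.74 (adjusted p = 0.234).

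Contrasts with liver are given for the 4 genes tested there, since Col1a1 and Col1a2 lay at background and could show no effect. These 4 lay close to background too. Over the 18 arrays their WT liver means were 7.30 to 7.44, against 7.26 for the lowest detected level. A fall in liver could hardly show, and a rise was compressed, so these contrasts say little about liver. In fibroblasts minus liver none of the 4 passed and 0 had an unadjusted limma p under 0.05, where 3.73% of probes passed and 16% had such a p. In adipose tissue minus liver none of the 4 passed and 1, Col5a1, had an unadjusted p under 0.05, where 4.24% of probes passed and 15.9% had such a p. Without adipose KO 5, Col5a1 passed in this contrast (1.16, limma adjusted p = 0.00855, against 0.91 and 0.0945 with all arrays). It passed under that 1 of 20 alternatives only.

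The WT arrays set the level of each probe across tissues in the same fit, again with tissue and slide inseparable. All 6 probes were lowest in liver. Col1a1 was at least 36.4-fold higher in WT fibroblasts than in WT liver and at least 8.99-fold higher in WT adipose tissue than in WT liver, bounds taken from the lowest detected signal because the liver probe was not detected. Col1a2 was detected on 2 of 3 WT liver arrays, with detection p-values just under the threshold (0.0452 and 0.0446), so its distance from liver is given without a test. Liver minus fibroblasts was -4.40 for Col1a2, and -5.95 with the background from the median and median absolute deviation, and adipose tissue minus liver was 0.86 and 2.71. For Col3a1, also detected on 2 of 3 WT liver arrays, and for Col5a1, Col6a1 and Col6a3, detected on all 3, liver minus fibroblasts was -6.06 to -3.64 and adipose tissue minus liver was 3.29 to 5.39, all past the limma test. With that other background the same 4 genes gave -6.88 to -4.82 and 4.51 to 6.01.

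Between fibroblasts and adipose tissue the order depended on the gene. WT adipose tissue minus WT fibroblasts was -3.54 ± 0.24 for Col1a2 (limma adjusted p = 2.24e-08), -2.41 ± 0.20 for Col5a1 (adjusted p = 1.36e-07) and -2.02 ± 0.44 for Col1a1 (adjusted p = 0.00135). Col6a1 was 0.79 ± 0.32 higher in adipose tissue, just past the threshold (adjusted p = 0.0498). Col3a1 and Col6a3 did not differ beyond their spread, at -0.35 ± 0.45 and 0.40 ± 0.32. Adipose WT differed from fibroblast WT for 56.7% of all probes, liver WT from fibroblast WT for 53.9% and adipose WT from liver WT for 54.5%. The normalised KO fibroblast level of Col1a2, 8.48 ± 0.36 (SD, n = 3) over the 18 arrays, lay close to that of WT adipose tissue at 8.11 ± 0.39 (SD, n = 3). This depended on the processing and was not tested. In the authors' normalised values the order was the other way, with 298.3 to 502.7 on KO fibroblast arrays and 573.3 to 1015 on WT adipose arrays.

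Other genes of collagen production and handling were read from lists. Of 22 other collagen genes with a probe, 7 were tested in fibroblasts, 3 in adipose tissue and 0 in liver. None passed the limma test, and at an unadjusted p under 0.05 there were 2 in fibroblasts and 1 in adipose tissue. Over all probes tested, 10.7% in fibroblasts, 13.2% in adipose tissue and 22.2% in liver had an unadjusted p under 0.05, the background for this count and for those of the lists that follow. In fibroblasts Col7a1, which encodes the anchoring fibril collagen, had the largest positive difference, 1.18 ± 0.17 (adjusted p = 0.0884), and Col2a1, the main fibrillar collagen of cartilage, the largest negative one, -0.81 ± 0.30 (adjusted p = 0.425). In adipose tissue Col15a1, a basement membrane zone collagen, stood at 0.95 ± 0.26 (adjusted p = 0.236) and Col8a1 at -0.13 ± 0.09.

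Enzymes and chaperones that modify and crosslink collagen gave the single further call in fibroblasts. Loxl2, a lysyl oxidase family enzyme, was 0.42 ± 0.04 higher in KO (limma adjusted p = 0.0378), 1 of 7 tested. The call was lost with the replicate number as a block (adjusted p = 0.147) and without any single array (adjusted p from 0.0708 to 0.182). Loxl1, of the same family, was at -0.32 ± 0.11 there. In adipose tissue 0 of 5 passed, 2 had an unadjusted p under 0.05 and all 5 differences were positive, the largest being 1.23 ± 0.47 for Loxl1 (adjusted p = 0.369). In liver 0 of 3 passed and 0 had an unadjusted p under 0.05, from -0.06 for Serpinh1, the collagen chaperone HSP47, to 0.02 for Loxl1.

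Genes for removal of the collagen propeptides were represented by Adamts2, Bmp1 and Pcolce, none of which passed the limma test in any tissue, with 2 at an unadjusted p under 0.05 in fibroblasts, 1 in adipose tissue and 0 in liver. In fibroblasts they ran from -0.12 for Pcolce, an enhancer of the propeptidase, to 0.81 ± 0.25 for Adamts2, the N-propeptidase. In adipose tissue all 3 were positive, from 0.72 for Bmp1, the C-propeptidase, to 1.01 ± 0.36 for Adamts2 (limma adjusted p = 0.343). In liver they ran from 0.02 to 0.27. Decorin (Dcn), a proteoglycan that binds collagen fibrils and the only 1 of its list with a probe, was at 0.30 ± 0.61 in fibroblasts, 0.88 ± 0.27 in adipose tissue (adjusted p = 0.273) and 0.59 ± 0.23 in liver.

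Genes of collagen breakdown, receptors and TGF-beta signalling, a main inducer of collagen genes, also gave no call by limma. Of 3 breakdown genes in each tissue, 0, 1 and 1 had an unadjusted p under 0.05 in fibroblasts, adipose tissue and liver. In fibroblasts the range was -0.43 for Timp2, an inhibitor of matrix metalloproteinases, to 0.07 for Timp3. In adipose tissue the range was -0.11 for Timp3 to 0.80 for Timp2, and in liver 0.07 for Mmp19 to 0.32 for Timp2. Itga11, a collagen-binding integrin chain and the only receptor tested, was at -0.21 in fibroblasts and -0.27 in adipose tissue.

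The TGF-beta list had 9 genes tested in fibroblasts, from Tgfb2, a ligand, at -0.76 ± 0.15 (limma adjusted p = 0.165) to Ltbp1, which holds latent TGF-beta in the matrix, at 1.16 ± 0.33 (adjusted p = 0.298). None passed, and 2 had an unadjusted p under 0.05. In adipose tissue 0 of 9 passed, 3 had an unadjusted p under 0.05 and 8 were positive, from -0.34 for Ltbp2 to 0.62 for Ltbp1. In liver 0 of 3 passed and 2 had an unadjusted p under 0.05, from 0.23 for Smad4 to 0.72 ± 0.16 for Tgfbr3 (adjusted p = 0.0665).

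**Figure D5:**
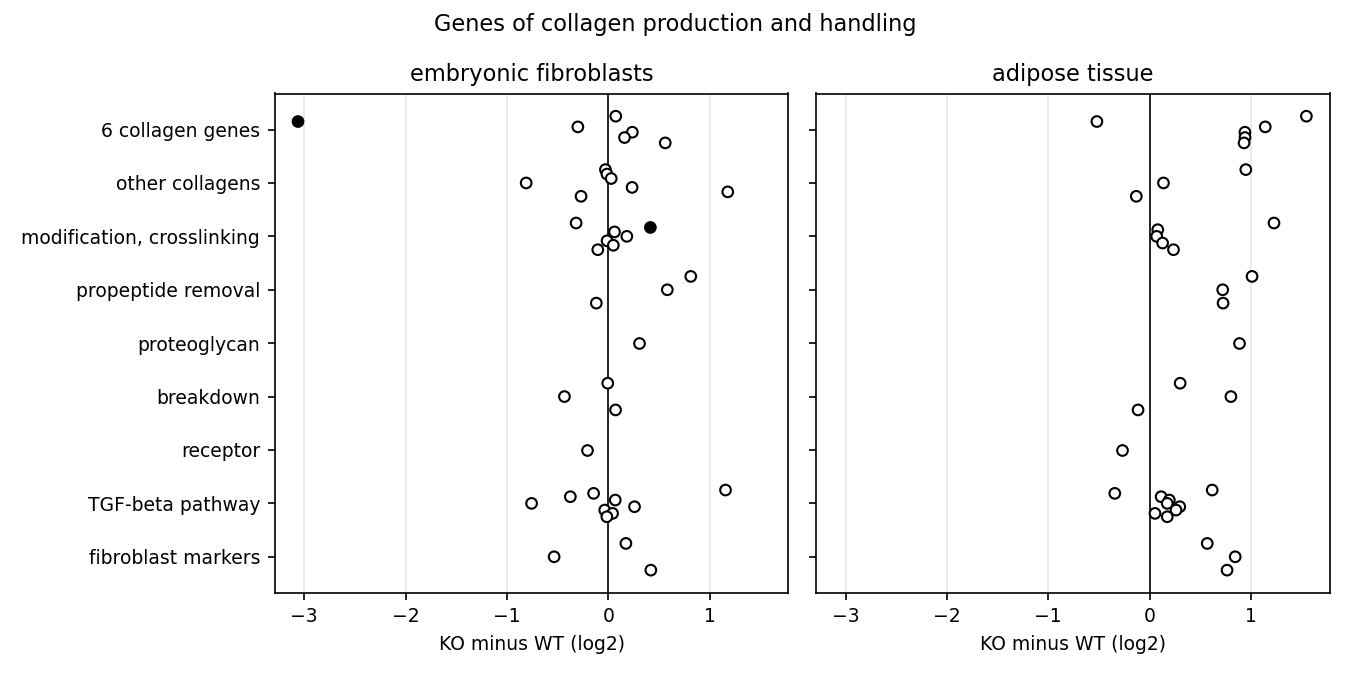
KO minus WT difference on the log2 scale for each tested gene of the lists, in fibroblasts (left) and adipose tissue (right); filled points passed the limma test and open points did not. The filled points are Col1a2 at -3.06 and Loxl2 at 0.42, both in fibroblasts, and neither passed with the replicate number as a block.

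Markers of other cell types were read beside the collagen values in adipose tissue. All 3 fibroblast markers with a probe (Fbln1, Fbln2 and S100a4) had positive differences, of 0.57 to 0.84, none past the test, and their summed raw signal was 2787 to 6970 on the WT arrays and 3814 to 15221 on the KO arrays. The 3 tested macrophage markers differed by 0.10 to 0.68, with a summed raw signal over 4 probes of 2511 to 9008 in WT and 4435 to 14418 in KO. Of the 2 tested mesothelial markers, Upk3b was at 1.60 ± 0.94 and Lrrn4 at 0.14 ± 0.11, neither past the test, and the 3 probes of the list summed to 491.8 to 2047 in WT and 834.4 to 5276 in KO. The 2 adipocyte markers, Fabp4 and Lpl, summed to 56004 to 63757 in WT and 58163 to 62351 in KO, and the 3 endothelial markers tested were at -0.41 to -0.13. The part of these cell types in the adipose collagen values was not tested. In fibroblasts the 3 fibroblast markers were detected on every array, at -0.53 to 0.42, and the 2 tested macrophage markers were at 0.00 and 0.01. The defining hepatocyte genes Apoa1, Apoa2 and Cps1 were detected on every liver array, with a summed raw signal of 107894 to 125483 in WT. Of the 2 tested stellate cell markers, Reln was 0.68 ± 0.09 higher in KO liver (limma adjusted p = 0.0248) and Lrat was at 0.03 ± 0.05 (adjusted p = 0.773), where 4.75% of probes and no collagen gene passed.

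Col1a2 and Cav1 both lie on mouse chromosome 6. Of 16 other genes between them with a named probe, 10 were tested in fibroblasts and in adipose tissue and 9 in liver, and none passed the limma test in any tissue. At an unadjusted p under 0.05 there were 3 of 10 in fibroblasts, 3 of 10 in adipose tissue and 0 of 9 in liver, against 10.7%, 13.2% and 22.2% of all probes. Their differences ran from -0.49 to 0.37 in fibroblasts, with a median of -0.06, and from -0.55 to 0.21 in adipose tissue, with a median of -0.01. In liver they ran from -0.21 to 0.23.

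The named probes whose pattern was most like that of Col1a2 were found by Pearson's r over the 18 arrays after the mean of each tissue was subtracted, among 3612 candidates. They were Emb (r = 0.960), Dlk1 (0.947), Mcub (0.939), Eln, the gene of elastin (0.939), and Traf7 (0.906). Over the same arrays r with Col1a2 was 0.68 for Cav1, 0.26 for Col3a1, 0.00 for Col1a1, -0.06 for Col6a1, -0.21 for Col5a1 and -0.30 for Col6a3. The KO and WT means of Col1a2 were 8.48 and 11.64 in fibroblasts, 7.63 and 8.11 in adipose tissue and 7.19 and 7.24 in liver. These r values therefore mainly reflect the genotype difference on the fibroblast arrays. The arrays of a tissue share slides and a genotype difference, and the values are a description with no test.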

How the data were processed

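The deposited non-normalized table holds the average intensity of a probe's beads, exported from BeadStudio 1.5.1.3 without normalization per the file headers, with a detection p-value from the authors for each probe and array. The authors also deposited normalised intensities. Per the submitters' processing notes the tools were affy, limma, lumi and RMA, with no role given. A deposited table holding other information gives slide and position, and further deposited columns give the bead SD and the number of beads. Whether that SD is per bead or of the mean is not given in the sources used here.

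Of 45992 probes, 60 controls were left out. A number after leading zeros in the probe name was read as an NCBI gene ID, which named 9807 probes through a RefSeq table of GRCm38.p6. A gene with that ID existed for 57.3% of 14150 distinct numbers, and for 30.9% to 32.5% after a shift by 1 or 2. A clone name named 978 probes and an accession 9.

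R 4.3.3 and limma 3.58.1 were used. The neqc function corrected the background (negative controls inferred from detection p-values, offset 16), quantile normalised the arrays and took log2. Probes with detection p under 0.05 on at least 3 of 6 arrays (of 18 in the joint fit) were tested with lmFit and eBayes, two-sided. The inferred negative controls had an SD of 111 to 502 raw units, against a median absolute deviation of 11.7 to 23.0, which compresses dim probes, so a background from the latter was an alternative. Other alternatives changed the background, values, normalisation, filter, variance, blocks and arrays. The number of arrays limits the precision. Fits were tested on simulated data.

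Equal replicate numbers were checked by the correlation of deviations from group means. In fibroblasts it was 0.10, 0.23 and 0.24, so the numbers were treated as pairing the arrays and blocked values stand beside changed calls.

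The 6 genes and all lists were chosen with earlier results of these data known. Named list genes are those called, or else the largest difference in each direction, and the 5 probes most like Col1a2.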

Additional observations from a re-analysis of the deposited data

Results flagged for a closer look

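The contrast of the knockout effect on Col1a2 in fibroblasts minus adipose tissue passed its own test with the main background. It was -2.69 (log2, limma adjusted p = 0.000765 over 18 arrays). Fitted within each tissue, Col1a2 was lower in KO by 3.06 in fibroblasts and at -0.52 in adipose tissue. The contrast did not pass with the background from the median and median absolute deviation (-1.69, limma adjusted p = 0.205). Over the 18 arrays, with the main background, Col1a2 read 8.11 in WT adipose tissue and 7.19 in KO liver, where it was undetected. On that scale a fall as large as that in fibroblasts could not have shown in adipose tissue. With the other background, Col1a2 in WT adipose tissue lay 2.71 above WT liver, and its difference within fibroblasts was -2.63. What this limit adds to the contrast was not tested. In fibroblasts minus liver the 18-array fit with the main background gave -3.11. Col1a2 was detected on 2 of 6 liver arrays and was not tested there, so this value restates the difference in fibroblasts and does not show that the effect differed between these tissues.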

How the results depend on the processing

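The sign of all 6 collagen differences in adipose tissue and of Col1a2 in fibroblasts was the same under all 15 alternatives, and no collagen gene passed in adipose tissue or liver under any alternative. The counts of probes past the threshold moved most. In fibroblasts the count was 63, and 249 without background correction, 165 with the background from the median and median absolute deviation, 20 with median centring, 36 with no filter, 238 with a trended and robust variance and 13 with the replicate block, under which 0 collagen genes passed and Col1a2 stood at -3.06 (adjusted p = 0.0908). In adipose tissue it was 65, and 275, 210, 43, 31 and 250 under the first 5 of these, 160 in the authors' values and 31 with the slide section as a block. In liver it was 597, and 372 in the authors' values, 358 with no filter, 292 with the slide as a block and 259 with the replicate block. The cause was not tested.

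Leaving out 1 array gave 17 to 62 probes in fibroblasts, 15 to 94 in adipose tissue and 60 to 1054 in liver, 0 to 1 collagen genes in fibroblasts, and -3.23 to -2.85 for Col1a2 there. Small differences changed sign: Col1a1 ran from -0.0651 to 0.21, Col3a1 from -0.48 to 0.0239 and Col6a1 from -0.0438 to 0.40 in fibroblasts, and for fibroblasts minus liver Col1a1 ran from -0.0725 to 0.20 and Col6a1 from -0.21 to 0.26. With the background from the median and median absolute deviation, the contrast of fibroblasts minus liver was -0.0206 for Col1a1, -0.12 for Col5a1, -0.41 for Col6a1 and -0.21 for Col6a3, and it was -0.16 for Col6a1 without background correction, against 0.07 for Col1a1, 0.18 for Col5a1, 0.00379 for Col6a1 and 0.43 for Col6a3 in the setting used elsewhere. For Col1a2 that background gave -1.69 for the contrast with adipose tissue. Leaving out 1 array gave 1.06 to 2.11 for Col1a1, -0.76 to -0.29 for Col1a2, 0.66 to 1.62 for Col3a1, 0.75 to 1.16 for Col5a1, 0.66 to 1.25 for Col6a1 and 0.67 to 1.301 for Col6a3 in adipose tissue.

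In liver the equal numbers did not pair the arrays (correlations 0.23, 0.23 and -0.10), and the block changed no collagen call there. No paired analysis was possible in adipose tissue because the groups share only number 2. In liver, signal close to background limits what can be seen.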
